A study of Homo sapiens with 12 samples.

Results

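Fibrinogen is a secreted plasma glycoprotein made by hepatocytes from the products of FGA (alpha chain), FGB (beta chain) and FGG (gamma chain), and FGL1 (fibrinogen-like 1) is a related liver protein that carries a fibrinogen C-terminal domain and binds the immune checkpoint receptor LAG3. On the arrays analysed here these 4 genes, of 19775 genes named, were read by 7 of 54613 probe sets, a probe set being a group of short probes that report on 1 transcript region. FGA had 3 of them (205650_s_at, 205649_s_at and 231671_at), FGB had 2 (204988_at and 216238_s_at), and FGG (219612_s_at) and FGL1 (205305_at) had 1 each. The genes were chosen from their rise in DAAD2-treated SNU449 cells, so their values in that comparison are given as a description with no test. The comparison in Hep3B, the comparison of the untreated lines and the variation between arrays of a group were not used for the choice and were tested.

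The study compared liver cancer cells treated with DAAD2, an N-acetyl cysteine derivative of dehydroabietylamine, with cells given the solvent alone. Hep3B, a hepatocellular carcinoma line described as sensitive to the compound, received 2 μM DAAD2 or 0.1% DMSO for 72 h, and SNU449, a hepatocellular carcinoma line described as resistant, received 20 μM DAAD2 or 0.1% DMSO for 72 h. Each of the 4 groups held 3 arrays, 12 in all, and each line and dose go together, so a difference between the lines in the response cannot be told apart from a difference in dose. The study's methods describe its data in general as coming from independent experiments and the arrays as replicate samples of each type, without tying the arrays to separate cultures, and p-values therefore measure only the spread between these arrays, which may be technical.

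Values are log2 levels after RMA, a method that corrects background, normalizes the arrays and summarises the probes of a set, and the median level of an array lay between 3.71 and 3.85. The 9 hepatocyte markers measured were all above 6 on every Hep3B array and none was above 6 throughout either SNU449 group. The log2 of their summed level was 16.26 to 16.30 in Hep3B with DMSO and 16.14 in all Hep3B arrays with DAAD2 (8 of 9 genes below 0, 5 with an unadjusted p under 0.05, 0 called), 7.45 to 7.61 in SNU449 with DMSO and 7.61 to 7.81 in SNU449 with DAAD2. The sum of 7 mesenchymal markers was 14.0 to 14.3 in SNU449, 11.4 to 11.7 in Hep3B with DMSO and 11.9 to 12.2 in Hep3B with DAAD2. The part of these shifts in the Hep3B values of the chains was not tested. SNU449, though labelled as a liver cancer line, lacked the defining hepatocyte transcripts on this measure, and albumin (ALB) was at 2.98 to 3.40 on its 6 arrays against 14.4 to 14.6 in Hep3B. Leukocyte, platelet and endothelial marker sums lay between 6.19 and 7.22 in all groups, with no such marker above 6 throughout a group.

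The chains fold and pair in the endoplasmic reticulum with the help of chaperones and disulfide isomerases, and fibrinogen is secreted once all of them have been joined. Transcription of the 3 genes in the liver is known to depend on liver-enriched factors such as C/EBP proteins and to rise in the acute phase response, when interleukin 6 acts through its receptor and STAT3. FGA, FGB and FGG lie side by side on chromosome 4, FGB on the plus strand and the other chains on the minus strand.

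Because the chains are transcribed from separate promoters, the 250 bases before each start site are shown for comparison, 5′ to 3′ on the strand of the gene, from the RefSeq table of GRCh38.p14. Capitals mark the matches, on either strand, to CTGGGA (the core of an interleukin 6 response element), TTGCNNAA (C/EBP) and TTCCNGGAA (STAT). The motif letters were chosen after the promoters had been read, and no 2 matches overlapped.
FGB promoter, chr4:154562730-154562979, plus strand: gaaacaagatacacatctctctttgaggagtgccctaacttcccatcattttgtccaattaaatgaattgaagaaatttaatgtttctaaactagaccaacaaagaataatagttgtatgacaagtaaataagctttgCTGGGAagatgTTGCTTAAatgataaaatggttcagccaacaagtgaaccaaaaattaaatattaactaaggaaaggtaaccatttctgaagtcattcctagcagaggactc
FGA promoter, chr4:154590743-154590992, minus strand: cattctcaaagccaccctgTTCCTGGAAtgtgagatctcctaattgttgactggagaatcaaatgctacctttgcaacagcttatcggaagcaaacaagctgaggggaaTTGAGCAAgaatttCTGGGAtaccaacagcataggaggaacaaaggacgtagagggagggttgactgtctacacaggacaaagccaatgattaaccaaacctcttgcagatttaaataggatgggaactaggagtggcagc
FGG promoter, chr4:154612657-154612906, minus strand: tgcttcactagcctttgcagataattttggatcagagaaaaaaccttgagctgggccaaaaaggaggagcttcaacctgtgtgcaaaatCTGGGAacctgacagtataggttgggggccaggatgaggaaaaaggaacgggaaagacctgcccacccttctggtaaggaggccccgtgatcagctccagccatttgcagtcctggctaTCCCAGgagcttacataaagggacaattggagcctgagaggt

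CTGGGA occurred in all 3 windows, once in FGB (-112 to -107), once in FGA (-127 to -122) and on both strands in FGG (-161 to -156 and -42 to -37). The C/EBP letters were found in FGB (-101 to -94) and FGA (-141 to -134), and the STAT letters in FGA (-231 to -223). Of 35116 promoter windows of the same length, 28.7% held CTGGGA, 9.05% the C/EBP letters and 0.968% the STAT letters, so CTGGGA is common. These matches are descriptions of sequence, not sites shown to be bound.

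In SNU449 all 3 chains were higher with 20 μM DAAD2, FGG the most, and FGL1 was higher by less. FGG, the gamma chain, read 8.22, 7.51 and 7.21 with DMSO and 10.51, 9.91 and 9.81 with DAAD2. Every treated array stood above every control array, and the mean rose from 7.65 ± 0.52 to 10.08 ± 0.38 (SD, n = 3), a difference of 2.43 (SE 0.27) or 5.39-fold.

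FGB, the beta chain, read 10.48, 9.97 and 9.73 with DMSO and 11.78, 11.44 and 11.66 with DAAD2 at its brighter probe set. Its groups did not overlap either, and the log2 difference was 1.56 (SE 0.19), or 2.96-fold. The dimmer FGB probe set, 216238_s_at, read 7.99, 8.24 and 7.61 with DMSO and 10.04, 9.75 and 9.36 with DAAD2, a log2 difference of 1.77 (SE 0.21). Both FGB probe sets gave the same direction and nearly the same size.

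FGA, the alpha chain, read 5.11, 4.54 and 4.69 with DMSO and 6.45, 5.51 and 6.44 with DAAD2 at its brightest probe set, 205650_s_at. The groups were again apart, with DAAD2 replicate 2 closest to the controls, and the log2 difference was 1.35 (SE 0.26), or 2.55-fold. On that array the 3′ probe set of GAPDH exceeded the 5′ one by 1.99 on the log2 scale, against 0.34 to 0.97 on the other SNU449 arrays, a sign of RNA quality whose part in the FGA value was not tested. Without that array the FGA difference was 1.66.

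The other FGA probe sets did not show the rise. 205649_s_at read 2.99, 3.01 and 2.86 with DMSO and 2.95, 3.17 and 3.30 with DAAD2, and 231671_at read 3.93, 3.62 and 3.64 with DMSO and 3.57, 3.63 and 3.80 with DAAD2. Their differences were 0.18 (SE 0.12) and -0.06 (SE 0.13), with overlapping groups. Both lay near or under the median of an array in this line, where a probe set reports little, and the mean of the 3 probe sets gave FGA a difference of 0.49.

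FGL1 read 5.05, 5.38 and 4.89 with DMSO and 6.09, 6.04 and 5.54 with DAAD2. The groups did not overlap, and the difference was 0.78 (SE 0.18) or 1.72-fold. In the fit over all probe sets FGL1 was not called, while FGA 205650_s_at was. At an adjusted p under 0.05 in limma, 4 of the 7 probe sets were called higher and 0 lower, where 1.04% of all probe sets were called higher and 0.417% lower. As the genes were chosen on this contrast, that count carries no weight. The count itself varied with the setting: it was 2 without DMSO replicate 2 or DAAD2 replicate 1, where FGB 204988_at and FGA were lost, and 3 without DMSO replicate 1 or 3 and after quantile normalization, where FGA was lost. Without DAAD2 replicate 3 FGL1 took the place of FGA, and with all 12 arrays in 1 fit or without dim probe sets FGL1 was added and the count was 5. With each array left out the differences ranged from 2.21 to 2.72 for FGG, 1.40 to 1.78 for FGB, 1.19 to 1.66 for FGA and 0.67 to 0.96 for FGL1. Of the markers described above, 0 of 9 hepatocyte genes and 2 of 7 mesenchymal genes were called with DAAD2 in SNU449, COL1A1 (1.21) and TGFBI (0.99). Of the 7 mesenchymal genes 4 lay below 0, VIM at -0.25 among them, their median was -0.04, and their summed level was 14.2 to 14.3 with DMSO and 14.0 to 14.3 with DAAD2. The part of these markers in the rise of the chains was not tested. In cell cultures measured in bulk, fewer cells expressing a gene and less RNA per cell cannot be told apart.

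**Figure D1:**
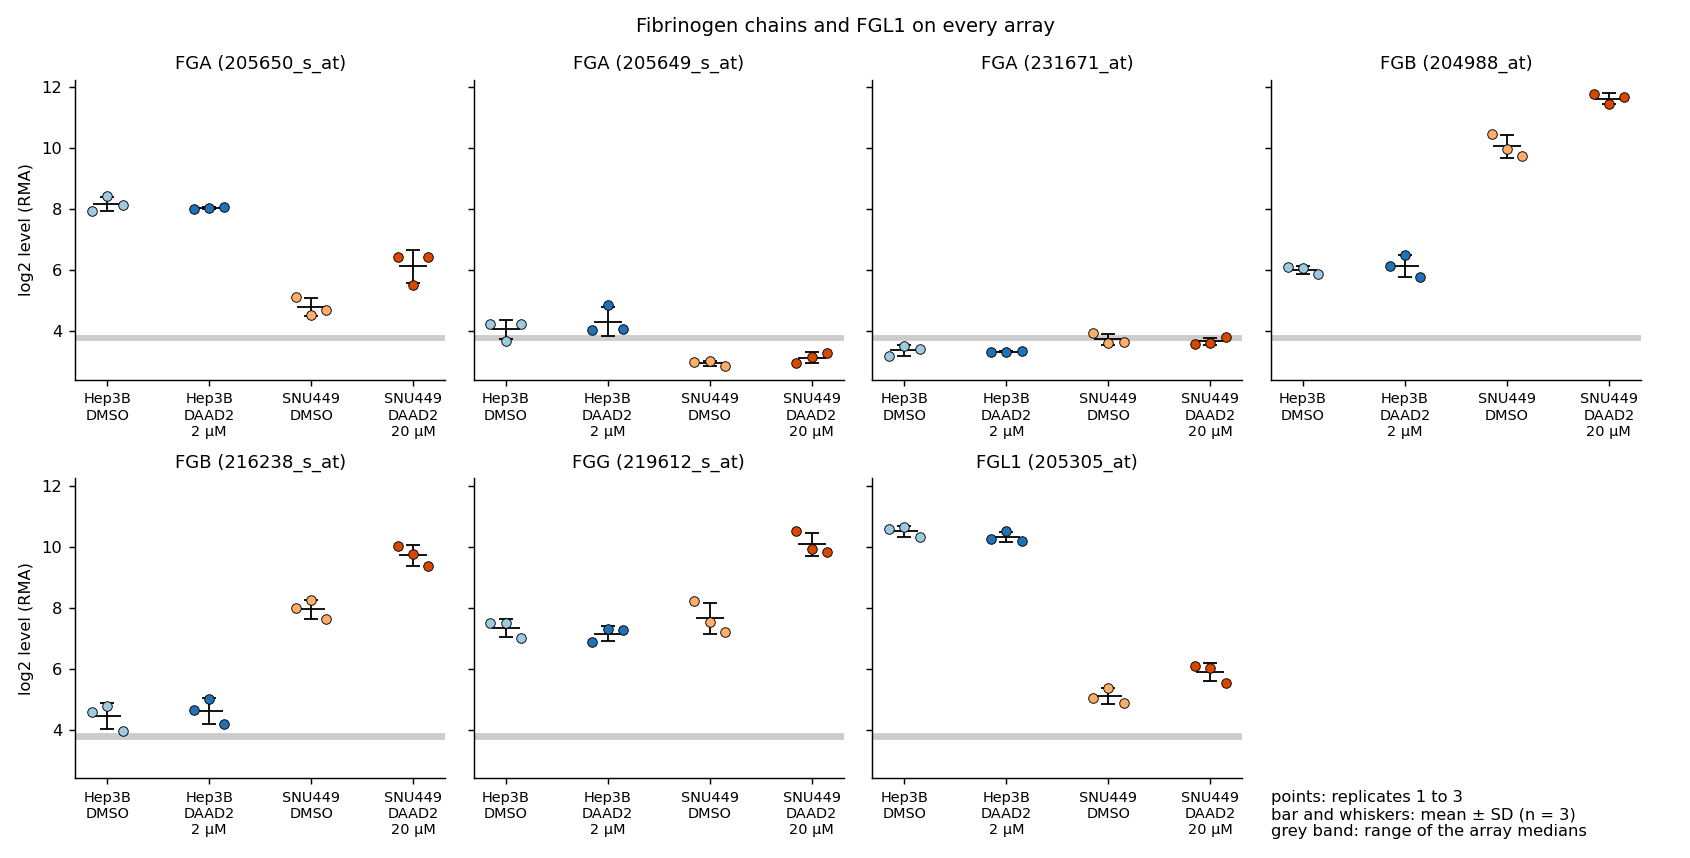
Log2 level (RMA) of the 7 probe sets on all 12 arrays, with points for replicates 1 to 3, bars for mean ± SD (n = 3) and a grey band for the range of the array medians (3.71 to 3.85). In SNU449 the DAAD2 points of FGG, both FGB probe sets, FGA 205650_s_at and FGL1 lie above all DMSO points, while in Hep3B the points of both groups overlap in every panel.

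In Hep3B no chain differed between 2 μM DAAD2 and DMSO beyond the spread of the arrays, and FGL1 did not either. FGG read 7.50, 7.49 and 7.01 with DMSO and 6.87, 7.30 and 7.27 with DAAD2. FGB 204988_at read 6.11, 6.06 and 5.86 with DMSO and 6.13, 6.49 and 5.78 with DAAD2. The arrays of both groups were interleaved for each of these chains.

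FGA 205650_s_at read 7.95, 8.42 and 8.14 with DMSO and 8.02, 8.03 and 8.07 with DAAD2, the treated arrays falling inside the range of the controls. FGL1 read 10.57, 10.65 and 10.30 with DMSO and 10.27, 10.51 and 10.20 with DAAD2, which also overlapped.

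The log2 differences in Hep3B were -0.19 for FGG (95% interval -0.57 to 0.20, limma adjusted p = 0.652), 0.12 for FGB (-0.27 to 0.51, adjusted p = 0.779), -0.13 for FGA (-0.42 to 0.15, adjusted p = 0.670) and -0.18 for FGL1 (-0.48 to 0.11, adjusted p = 0.549). Beside these, the SNU449 intervals ran from 1.82 to 3.04 for FGG, 1.13 to 2.00 for FGB, 0.76 to 1.94 for FGA and 0.37 to 1.19 for FGL1, as a description at the other dose. The second probe set of FGB differed by 0.17 (adjusted p = 0.786), and 205649_s_at and 231671_at of FGA by 0.26 (adjusted p = 0.657) and -0.04 (adjusted p = 0.899) in limma. Thus 0 of 7 probe sets were called, and limma called 0.0% of all probe sets in Hep3B, although 8191 of them had an unadjusted p under 0.05; none of the 7 did. The difference between the lines in the effect, SNU449 minus Hep3B, was 2.62 (SE 0.35) for FGG, 1.49 (SE 0.32) for FGA, 1.44 (SE 0.28) for FGB and 0.96 (SE 0.24) for FGL1, and holds the contrast on which the genes were chosen.

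**Figure D2:**
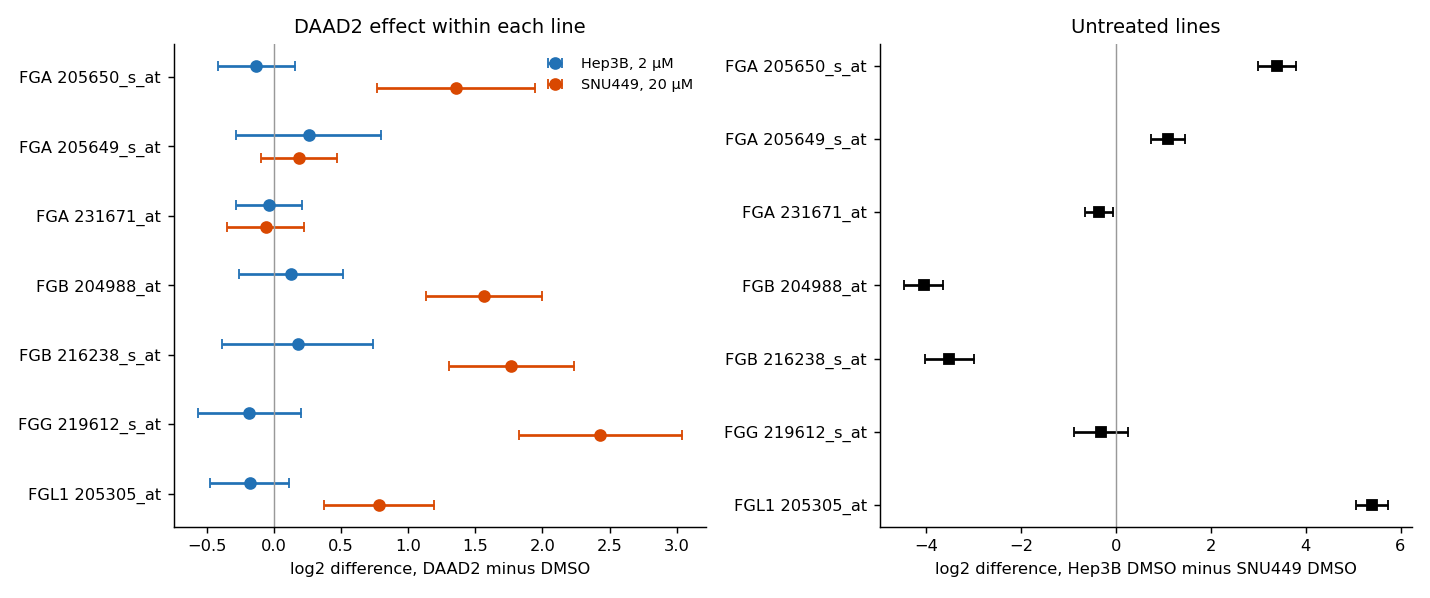
Log2 differences of the 7 probe sets with 95% intervals from limma, on the left DAAD2 minus DMSO in Hep3B (2 μM) and SNU449 (20 μM), on the right Hep3B minus SNU449 with DMSO. All Hep3B intervals on the left include 0, the SNU449 values run from -0.06 to 2.43, and on the right FGL1 and the brighter FGA probe sets lie above 0, both FGB probe sets and the dim FGA 231671_at (-0.36) below 0, and the FGG interval includes 0.

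The untreated lines differed in which chain was high. FGB was 16.6-fold higher in SNU449, FGA was 10.5-fold higher in Hep3B, FGL1 was 42.3-fold higher in Hep3B, and the FGG groups overlapped. Mean log2 levels with DMSO were 6.01 ± 0.13 in Hep3B and 10.06 ± 0.38 in SNU449 for FGB (difference -4.05, SE 0.18, limma adjusted p = 3.8e-07). For FGA they were 8.17 ± 0.24 and 4.78 ± 0.30 (difference 3.39, SE 0.17, limma adjusted p = 8.5e-07).

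FGG stood at 7.33 ± 0.28 in Hep3B and 7.65 ± 0.52 in SNU449, a difference of -0.31 with a 95% interval of -0.88 to 0.25 (limma adjusted p = 0.426). FGL1 stood at 10.51 ± 0.18 and 5.11 ± 0.25 (difference 5.40, SE 0.15, limma adjusted p = 2.2e-08). The second FGB probe set gave the same direction, 11.4-fold higher in SNU449 (limma adjusted p = 3.6e-06), while FGA 231671_at differed by -0.36 (limma adjusted p = 0.0700). FGA 205649_s_at read 4.06 in Hep3B and 2.96 in SNU449, the latter under the array medians, so no fold is given for it. In all, 3 of the 7 probe sets, 205649_s_at included, were called higher in Hep3B and 2 lower, in a comparison where 14.5% of all probe sets were called higher and 14.8% lower.

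The order of levels over the 4 groups differed between the chains. For FGA the order was both Hep3B groups, which did not differ beyond their spread, then SNU449 with DAAD2, then SNU449 with DMSO, and FGL1 had the same order. For FGB the order was SNU449 with DAAD2, SNU449 with DMSO and then both Hep3B groups. For FGG, SNU449 with DAAD2 was highest, and the other groups, between 7.15 and 7.65, overlapped.

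The ratio of 2 chains on the same array shows whether they moved by the same amount, and since probe sets differ in brightness only changes of the ratio are read here. In SNU449 the log2 ratio of FGG over FGB was -2.26, -2.46 and -2.52 with DMSO and -1.27, -1.52 and -1.85 with DAAD2. The groups did not overlap, and FGG gained 0.87 on FGB, or 1.82-fold. The ratio of FGG over FGA was 3.11, 2.98 and 2.52 with DMSO and 4.06, 4.40 and 3.38 with DAAD2, again without overlap, a gain of 1.08 or 2.11-fold. With DMSO the mean of FGA lay 0.96 above the array medians and that of FGG 3.83. The part of the dimness of FGA in this gain was not tested. The ratio of FGA over FGB overlapped between the groups, at -5.37, -5.43 and -5.04 with DMSO and -5.33, -5.93 and -5.22 with DAAD2. These SNU449 ratios come from the contrast on which the genes were chosen and have no test, and the FGA over FGB ratio, -0.21 with all arrays, was 0.0053 without DAAD2 replicate 2.

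In Hep3B no ratio changed beyond the spread of the arrays. FGG over FGB shifted by -0.31 (exact permutation test, two-sided, p = 0.4, adjusted 0.75 over the 3 ratios), FGA over FGB by -0.26 (exact permutation p = 0.5, adjusted 0.75) and FGG over FGA by -0.05 (exact permutation p = 0.9, adjusted 0.9). With 3 arrays against 3 the smallest p possible is 0.1. Between the untreated lines the ratios moved much further than with DAAD2 in either line, by 3.74 for FGG over FGB, 7.44 for FGA over FGB and -3.71 for FGG over FGA (Hep3B minus SNU449).

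**Figure D3:**
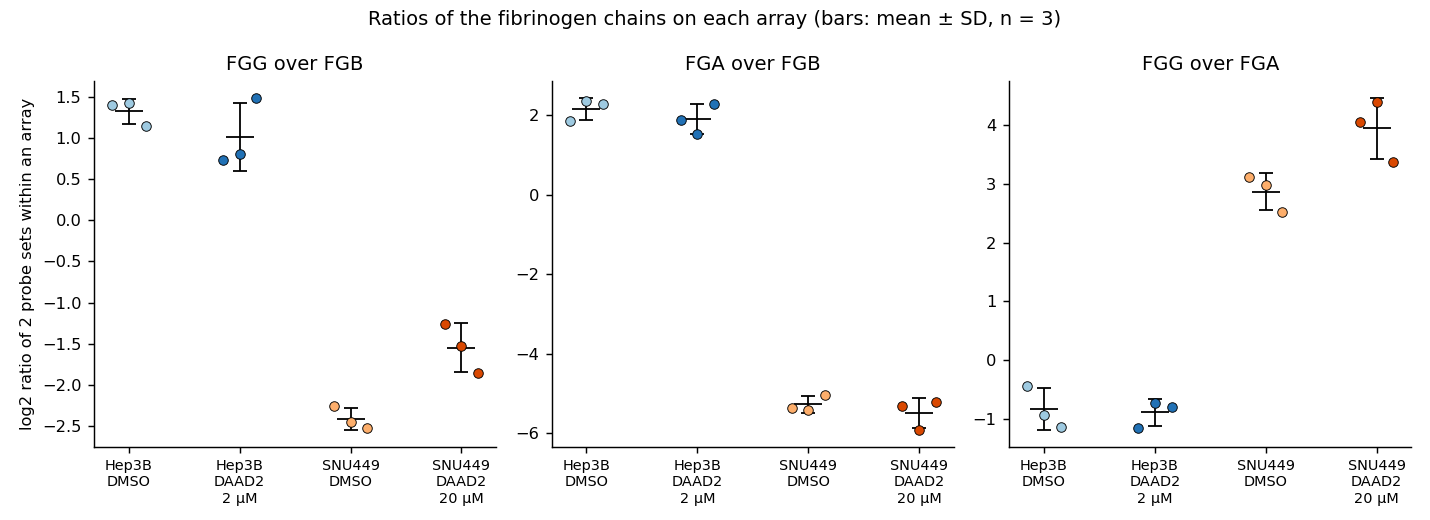
Log2 ratios of the brightest probe sets of 2 chains on each of the 12 arrays, with bars for mean ± SD (n = 3). With DAAD2 the SNU449 points of FGG over FGB and of FGG over FGA lie above all DMSO points, FGA over FGB overlaps in both lines, and the Hep3B groups overlap in all panels.

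Whether the genes varied together between arrays of the same group was examined on the deviations of the 12 arrays from their 4 group means. Of 6 pairs, FGB and FGG gave the highest correlation, Pearson's r = 0.68 (exact permutation within groups, p = 0.0509, adjusted 0.306) and Spearman's rho = 0.76 (exact permutation p = 0.0247, adjusted 0.148). With the 2 arrays farthest from the median of FGB left out, r was 0.75. The deviations of FGB and FGG had the same sign on 10 of the 12 arrays. After quantile normalization it was 0.71, and 0.40 with 2 arrays left out. FGA gave r = 0.46 with FGB and 0.45 with FGG, or 0.25 and 0.30 with 2 arrays left out, and FGL1 gave 0.45 with FGG, 0.31 with FGB and -0.29 with FGA. No pair passed after adjustment over the 6 pairs by either measure.

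The 8 protein-coding genes nearest to the cluster, 4 on each side, stayed within 0.17 of their DMSO means in both lines. PLRG1, a splicing factor gene 12.6 kb from the cluster and the only neighbour well above the array medians (the group means of the others lay between 2.75 and 4.34), differed by -0.06 (SE 0.12) in SNU449 and 0.01 (SE 0.10) in Hep3B, where FGB beside it differed by 1.56 and 0.12. DCHS2, at 71.2 kb, and LRAT, at 128 kb, differed by 0.00 and 0.17 in SNU449, and both were below 3.26 in every group, under the array medians. None of the 8 was called in limma with DAAD2 in either line, and 0 had an unadjusted p under 0.05. Between the untreated lines 1 neighbour, MAP9, was called, higher in Hep3B by 1.53 (limma adjusted p = 4.7e-05), where 14.5% of all probe sets were called higher.

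**Figure D4:**
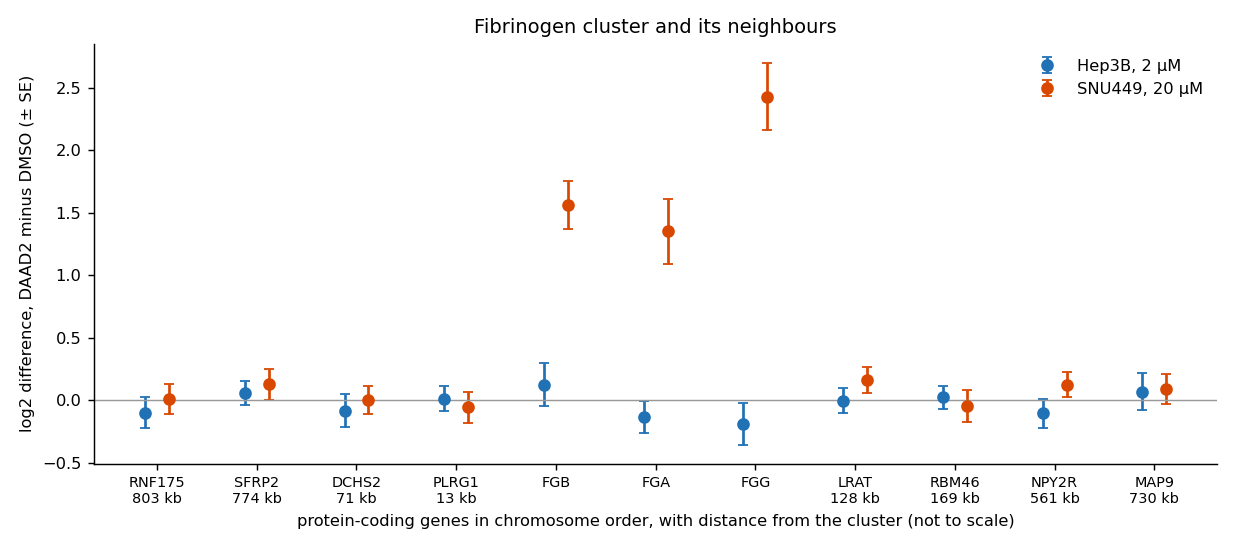
Log2 difference, DAAD2 minus DMSO (± SE), of FGB, FGA and FGG and of their 8 nearest protein-coding neighbours in chromosome order, with the distance from the cluster in kb. The chains stand at 1.35 to 2.43 in SNU449, all neighbours lie between -0.06 and 0.17 there, and in Hep3B all genes lie near 0.

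Some listed regulators of fibrinogen transcription were called higher in SNU449. This list and those below were drawn up with earlier results of these data known, so their SNU449 calls and p-values are descriptions. Of 29 listed, 26 were measured (the others were not analysed here), and 6 were called higher and 0 lower in SNU449. Over all probe sets 1.04% were called higher and 0.417% lower. Of the 26, 13 lay above 0 and 13 below, with a median difference of 0.01 beside 0.0034 over all genes. IL6R, the interleukin 6 receptor, rose by 1.45 (SE 0.11, limma adjusted p = 0.0016), the cytokine IL1B by 1.32 (SE 0.18, limma adjusted p = 0.016), the transcription factor CEBPD by 1.18 (SE 0.15, limma adjusted p = 0.012) and SOCS3, a feedback inhibitor of STAT3 signalling, by 1.12 (SE 0.11, limma adjusted p = 0.0043). The other called genes were CEBPB (1.05) and IL6 (0.80), named here after their values had been seen. STAT3 itself differed by 0.17 and IL6ST, the signalling subunit of the receptor, by 0.11, and neither was called. The C/EBP gene CEBPA, at 4.81 with DMSO, differed by -0.49 with groups that did not overlap (limma adjusted p = 0.346, not called).

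In Hep3B 0 of these 26 regulators were called (median 0.01, 7 with an unadjusted p under 0.05), and FOXA3 had the smallest p (difference -0.58, limma adjusted p = 0.0823). Between the untreated lines 8 were called higher and 12 lower in Hep3B, where 14.5% of all probe sets were called higher and 14.8% lower. CEBPA, a liver-enriched factor, was higher in Hep3B by 7.16 (limma adjusted p = 1.7e-09), FOXA3 by 5.30 (adjusted p = 7.3e-09) and the interleukin 1 receptor IL1R1 by 4.07 (adjusted p = 1.2e-08), while the oncostatin M receptor OSMR differed by -4.99 (adjusted p = 9.1e-08). FGA and FGL1 were high in the line where CEBPA and FOXA3 were high, and FGB was high in the other. Other listed regulators were higher in SNU449, among them CEBPD (-2.80) and STAT3 (-1.06, both Hep3B minus SNU449). With 2 lines, the part of any regulator in the levels of the chains was not tested.

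A few other acute phase proteins rose in SNU449, where 1.04% of all probe sets were called higher and 0.417% lower. Of 18 measured of 23 listed, 3 were called higher and 0 lower in SNU449 (median 0.06): the complement genes C3 (1.91, limma adjusted p = 7.7e-04) and CFB (1.11, adjusted p = 0.0063) and the copper carrier CP (1.85, adjusted p = 7.7e-04). Of the 18, 14 lay above 0 and 4 below in SNU449, and 5 had an unadjusted limma p under 0.05. The remaining 15 included CRP (0.04) and HP (0.01), which were not called and lay below the array median. SERPINA3, also among them, differed by 0.39 with groups that did not overlap and was not called. In Hep3B 0 of 18 were called (median -0.22, 10 with an unadjusted p under 0.05), CFB differing by -0.94 (limma adjusted p = 0.0770) and CP, called in SNU449, by 1.07 with groups that did not overlap (limma adjusted p = 0.0941). Between the untreated lines 14 of 18 were called higher in Hep3B and 0 lower, beside 14.5% and 14.8% of all probe sets. The largest differences were those of SERPINA1 (8.78), A2M (8.71), ORM1 (7.52) and AGT (7.20), a direction shared by FGA and FGL1 and opposite to that of FGB.

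**Figure D5:**
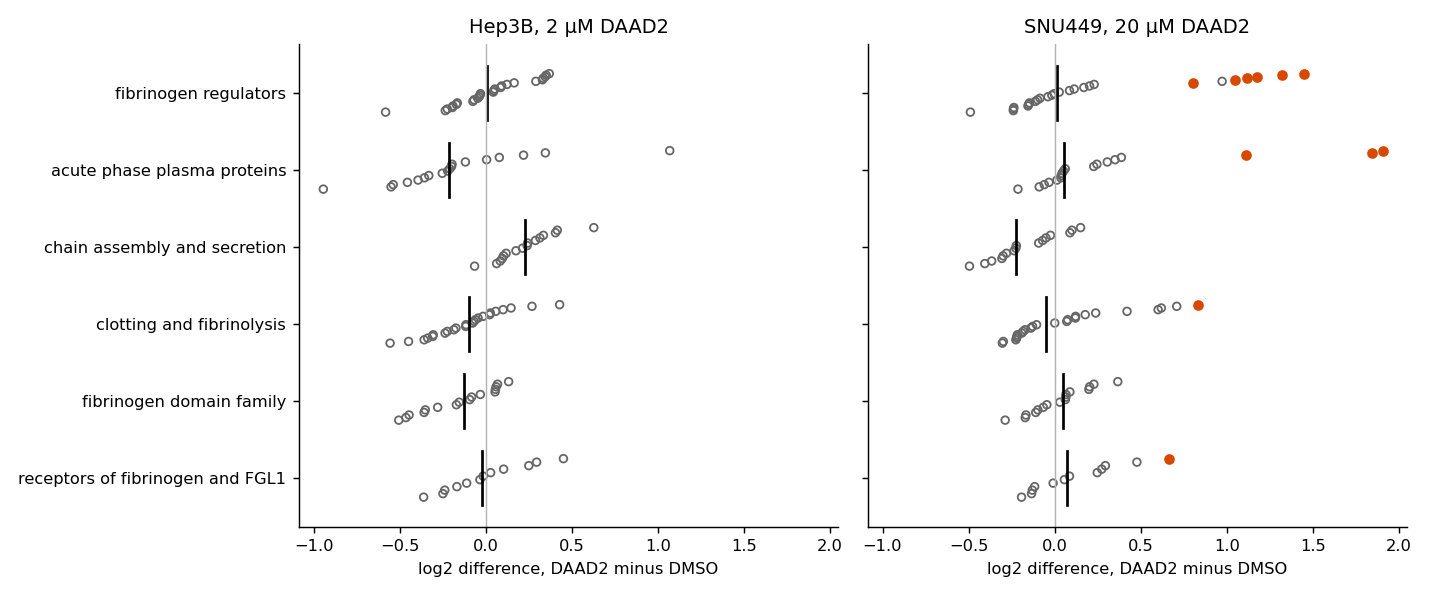
Log2 difference, DAAD2 minus DMSO, of every measured gene of 6 lists around fibrinogen, in Hep3B (2 μM) and SNU449 (20 μM). Filled points passed an adjusted p under 0.05, open points did not, and black lines are list medians. In SNU449 6 regulators, 3 acute phase proteins, 1 clotting gene and 1 receptor passed, all higher, and in Hep3B 0 passed.

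No gene of chain folding and secretion was called. Of the 16 measured, 0 were called in limma in either line, the median was -0.22 in SNU449 (4 with an unadjusted p under 0.05) and 0.23 in Hep3B (5). In SNU449 3 lay above 0 and 13 below, and in Hep3B 15 above and 1 below. The medians over all genes were 0.0034 in SNU449 and -0.0073 in Hep3B. In SNU449 the chaperone HSPA5 differed by -0.30 (limma adjusted p = 0.268) and its partner DNAJB11 by -0.41 (adjusted p = 0.294), and in Hep3B HSPA5 differed by 0.63 (adjusted p = 0.0770). Between the untreated lines 8 were called higher in Hep3B, DNAJB11 by 1.74, and 2 lower, beside 14.5% and 14.8% of all probe sets.

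Of 24 clotting and fibrinolysis genes measured, 1 was called in SNU449, the plasminogen activator PLAU (0.83, limma adjusted p = 0.015), and 0 in Hep3B (7 with an unadjusted p under 0.05). Over all probe sets 1.04% were called higher and 0.417% lower in SNU449, and 0.0% were called in Hep3B. Between the untreated lines 10 were called higher in Hep3B and 6 lower, beside 14.5% and 14.8% of all probe sets. Factor VII (F7, 5.77) and factor X (F10, 5.00) were among the former and PLAU (-5.56) among the latter. Of 12 receptor genes, 1 was called in SNU449, ICAM1, an adhesion receptor that binds fibrinogen (0.67, limma adjusted p = 0.025), and LAG3, the receptor of FGL1, differed by -0.13 in SNU449 and -0.17 in Hep3B, with no call. Of 16 measured relatives with a fibrinogen domain, 0 were called in either line, with 2 and 5 at an unadjusted p under 0.05 in SNU449 and Hep3B, and FGL1 differed by 0.78 and -0.18 in the same lines. Some relatives were dim. FGL2 read 2.76 to 3.29 on all arrays, under the array medians, and group means of ANGPTL6 were 3.31 to 3.96, while ANGPTL4 stood at 5.54 in SNU449 with DMSO.

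The genes whose pattern over the 12 arrays was most like the mean of the 3 chains, each line centred on its DMSO mean, were KLHDC8B (Pearson's r = 0.984), the epithelial transcription factor ELF3 (0.981), the interferon-induced IFITM3 (0.981), CCDC92 (0.980) and ERP27, an endoplasmic reticulum protein of the disulfide isomerase family (0.978), out of 9043 genes compared. They differed in SNU449 by 1.38, 0.83, 0.70, 0.75 and 1.89 respectively, and in Hep3B by -0.04, -0.10, 0.08, -0.01 and -0.28. The 12 points share line and treatment, so these values describe likeness in the SNU449 response and no more.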

How the data were processed

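RNA on 12 arrays (Affymetrix Human Genome U133 Plus 2.0) was measured and analysed from the log2 values deposited by the authors, made with RMA per the labels. For RMA no version is stated. Groups came from the labels. The 62 control probe sets were left out, and 54613 probe sets were fitted in R 4.3.3 (limma 3.58.1, two-sided test) within the 6 arrays of a comparison, with Benjamini-Hochberg adjustment over all probe sets and a threshold of 0.05, after tests on simulated data. Exact permutation tests used scipy 1.17.1. Symbols came from the platform annotation (41091 probe sets with 1 symbol, 1801 with several, 11721 with none), and a gene was represented by its brightest probe set on average. Members and gene lists were chosen with earlier results of these data known. In each list at most the 4 called genes with the largest change per comparison were named, or, where none was called, the 2 with the smallest unadjusted p, and the 5 genes most like the chains; other names in the lists were chosen after their values were seen. The number of arrays limits the precision. The alternatives were other normalization, filters, variance models, probe sets and fits, and each array left out.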

Additional observations from a re-analysis of the deposited data

Results flagged for a closer look

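The means of FGG and FGA (205650_s_at) lay above their controls in SNU449, and below them, but not beyond the spread of the arrays, in Hep3B. There the FGA difference of -0.13 was -0.0078 without DMSO replicate 2. As the mean of the FGA probe sets it was 0.029, and FGA 205649_s_at differed by 0.26. The FGG difference of -0.19 in Hep3B was -0.048 without DAAD2 replicate 1 and -0.35 without DMSO replicate 3. For FGG and FGA 205650_s_at every DAAD2 array of SNU449 lay above the mean of its DMSO arrays. Every DAAD2 array of Hep3B lay below the mean of its own, though the Hep3B groups overlapped. The DAAD2 effect in SNU449 minus that in Hep3B was 2.62 for FGG and 1.49 for FGA on the log2 scale. The difference was not tested, since it holds the contrast on which the genes were chosen, and the lines received different doses.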

How the results depend on the processing

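The SNU449 differences of FGG, FGB and FGL1 and the differences between the untreated lines of FGA, FGB, FGG and FGL1 kept their direction under every alternative run and moved by less than the spread between replicates or stayed on their side of the threshold. With 3 arrays per group, small changes in Hep3B could not be told from the spread, as the intervals show, and dim probe sets of FGA say little. No member was called in Hep3B under any alternative. An unadjusted limma p under 0.05 was reached by 2 member probe sets after quantile normalization and by 1 without DMSO replicate 3. The FGA difference in Hep3B became 0.029 as the mean of its probe sets. After quantile normalization the Hep3B differences were -0.29 for FGA, -0.34 for FGG, -0.29 for FGL1 and -0.0097 for FGB. With each array left out FGB ranged from -0.054 to 0.30, FGA from -0.24 to -0.0078, FGG from -0.35 to -0.048 and FGL1 from -0.29 to -0.11. As the mean of the probe sets FGA was 0.49 in SNU449. The FGA over FGB ratio with the second probe sets was 0.084 in Hep3B and -1.58 in SNU449, where FGG over FGA was 2.25, and with each array left out FGA over FGB ranged from -0.35 to 0.0053 in SNU449 and FGG over FGA from -0.20 to 0.14 in Hep3B.

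Member probe sets called higher in SNU449 numbered 2 to 4 with each array left out, 2 without DMSO replicate 2 or DAAD2 replicate 1, and 5 with all 12 arrays in 1 fit or without dim probe sets. The background moved more. In Hep3B the probe sets called higher and lower were 123 and 31 with all 12 arrays in 1 fit, 210 and 24 without dim probe sets, 271 and 48 with a variance trend, 68 and 9 after centring on array medians, 2 and 4 after quantile normalization, 775 and 110 by fold and unadjusted p, and 0 to 5 and 0 to 1 with each array left out (5 and 1 without DAAD2 replicate 3). In SNU449 they were 570 and 228 in the main setting, 1163 and 687 with all 12 arrays, 1006 and 792 by fold and unadjusted p, and 93 to 595 and 11 to 573 with each array left out, and those called lower were 356 without dim probe sets and 132 after centring. Probe sets lower in Hep3B than in SNU449 with DMSO were 5152 without dim probe sets. With the replicate number as a block 204 were called higher and 58 lower in SNU449, and the calls of the 7 probe sets did not change. Same-numbered DMSO and DAAD2 arrays of a line did not vary together (r from -0.27 to 0.09, beside -0.17 to 0.34 for differently numbered arrays). With 3 arrays per group this cannot settle whether the numbers pair them. The causes of these shifts were not tested.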
